A study of Mus musculus with 76 samples.

Results

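The late step of red cell formation was compared between fetal livers of DIS3 knockout (KO) and wild-type (WT) mouse embryos, within 1 line and between 2 sorted fractions. The libraries were chosen by their labels: 12 of the 76 libraries of the series, 3 from each of KO S4+S5, KO S3, WT S4+S5 and WT S3. All groups were C57BL/6NJ embryos of embryonic day 14.5, and the fractions were separated by flow cytometry on the surface proteins CD71 and Ter119, with S3 less mature than S4+S5. Ribosome-depleted total RNA was sequenced as stranded libraries. The labels name no Cre driver, promoter or floxed allele, so which cells carried the deletion is not known from them. The labels do not say that replicates came from separate embryos, so p-values measure only the spread between these samples, which may be technical.

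DIS3 is the ribonuclease that degrades RNA from its 3′ end within the nuclear form of the RNA exosome, a ring-shaped complex that removes short-lived non-coding transcripts and trims the precursors of ribosomal and other stable RNAs. In late erythroblasts cell division stops, the nucleus condenses and is expelled, mitochondria and ribosomes are cleared, and transcription narrows to globin, heme and red cell membrane genes. CD71 is the transferrin receptor and is lost from the surface as the cell matures, whereas Ter119 marks the surface of red cells and their maturing precursors. The question put to the data was which changes between S3 and S4+S5 were kept, lost, reduced, reversed, enlarged or gained without DIS3.

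Within each group, replicates 1 and 3 were nearly identical, with a chi-square statistic of 1.11 to 1.153 per degree of freedom, against 3.899 to 30.471 for the other 8 pairs. They were summed, which left 8 samples, 2 per group, and every pair of values below gives the summed replicates first and replicate 2 second. Libraries held 5.96 M to 16.16 M counts, and the predicted genes Gm26917 and Gm42418 together took 12.93% to 24.9% of them. Levels are given as CPM after TMM scaling, which are counts set to a common library size. The KO step and the WT step are log2 fold changes of S4+S5 over S3 in that genotype, and the interaction is the KO step minus the WT step. A positive interaction therefore means a higher late step in KO. All adjusted p-values are from the quasi-likelihood test of edgeR with Benjamini-Hochberg adjustment over all genes tested, and a gene was called when its adjusted p was under 0.05.

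Erythroid identity was shared by all samples. Summed CPM of 6 erythroid markers (among them Slc4a1, Hbb-bs, Alas2, Epor and Klf1) was 44310 and 44380 in KO S4+S5, 18780 and 16600 in KO S3, 53460 and 61010 in WT S4+S5, and 22550 and 18720 in WT S3. The sum was higher in S4+S5 than in S3 in both genotypes, and WT S4+S5 was the highest group. The 4 Y-linked genes measured summed to between 0.169 and 0.899 CPM in the KO samples and between 103 and 130 CPM in the WT samples, and Xist reached 2856 to 3838 CPM in KO against 295 to 901 CPM in WT. Sex and genotype can therefore not be told apart in this line. In bulk samples, fewer cells of a type and less RNA per cell cannot be told apart either.

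The targeted gene was measured first. Dis3 (ENSMUSG00000033166, chr14:99075206-99099770, GRCm38) had 4.06 and 8.28 CPM in KO S4+S5, 19.4 and 20 CPM in KO S3, 10.5 and 8.63 CPM in WT S4+S5, and 26.2 and 26 CPM in WT S3. KO S4+S5 was lowest, and KO and WT did not overlap within either fraction, although KO S3 still held most of the WT S3 level. The Dis3 count covers the whole gene, and the labels do not say which part was deleted. Its step fell in both genotypes (KO step -1.82, WT step -1.43), and the interaction of -0.39 ± 0.33 (SE; adjusted p = 0.418) was not called. Without replicate 2 of WT S4+S5 the interaction was -0.89 and without replicate 2 of KO S4+S5 it was -1.18, both called.

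Of 14603 genes tested, the KO step was higher in 5303 (36.3%) and lower in 3034 (20.8%), and the WT step was higher in 4693 (32.1%) and lower in 3967 (27.2%). The interaction was called in both directions, with a higher late step in KO for 2221 genes (15.2%) and a lower one for 1752 (12%), and its median over all tested genes was 0.07. Higher calls made up 55.9% of the called interactions. That share fell to 43.3% with the size factors of DESeq2 in place of TMM and to 37.5% when all sorted DIS3 groups were fitted together, so the balance of directions depends on the scaling. Leaving out an S4+S5 sample shifted it further. Without the summed sample of WT S4+S5 there were 1250 higher and 2761 lower calls, and without its replicate 2 there were 1152 and 3077. Without the summed sample of KO S4+S5 there were 839 higher and 2394 lower calls, without its replicate 2 there were 1202 and 3084, and without the summed sample of KO S3 the lower calls numbered 981. Changes are therefore best read against the median of all genes, which these settings moved to between -0.31 and 0.162.

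Genes with a called step were placed in classes by their calls. In 1513 genes only the WT step was called and in 1476 only the KO step, without a called interaction. These changes could not be placed as kept, lost or gained and are outside the classes below. A change was kept when both steps were called in the same direction, the interaction was not called and its 95% interval lay within 1 log2 unit of 0, and undecided when that interval was wider. Kept changes numbered 2248 (929 rising and 1319 falling in WT), and undecided ones 1961. A WT change was lost in 1267 genes, in which the KO step was not called and the interaction ran against the WT step. It was reduced in 790, reversed to a called KO step of the other sign in 548 and enlarged in 333. In 981 genes a step without a call in WT was gained in KO, 634 rising and 347 falling. Reversal fell mostly on genes that declined in WT: 425 of the 548 had a falling WT step. Counts of the classes moved by over 1.5 times when some samples were left out. Enlarged changes numbered 203 and 179 without the summed sample and without replicate 2 of KO S3, 152 and 177 without those of WT S3, and 564 and 580 without replicate 2 of KO S4+S5 and of WT S4+S5. Reduced changes numbered 335 without the summed sample of KO S3, and reversed ones 332 without the summed sample of KO S4+S5 and 350 without replicate 2 of KO S3. Gained changes numbered 646 and 640 without the summed sample and without replicate 2 of KO S3.

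**Figure D1:**
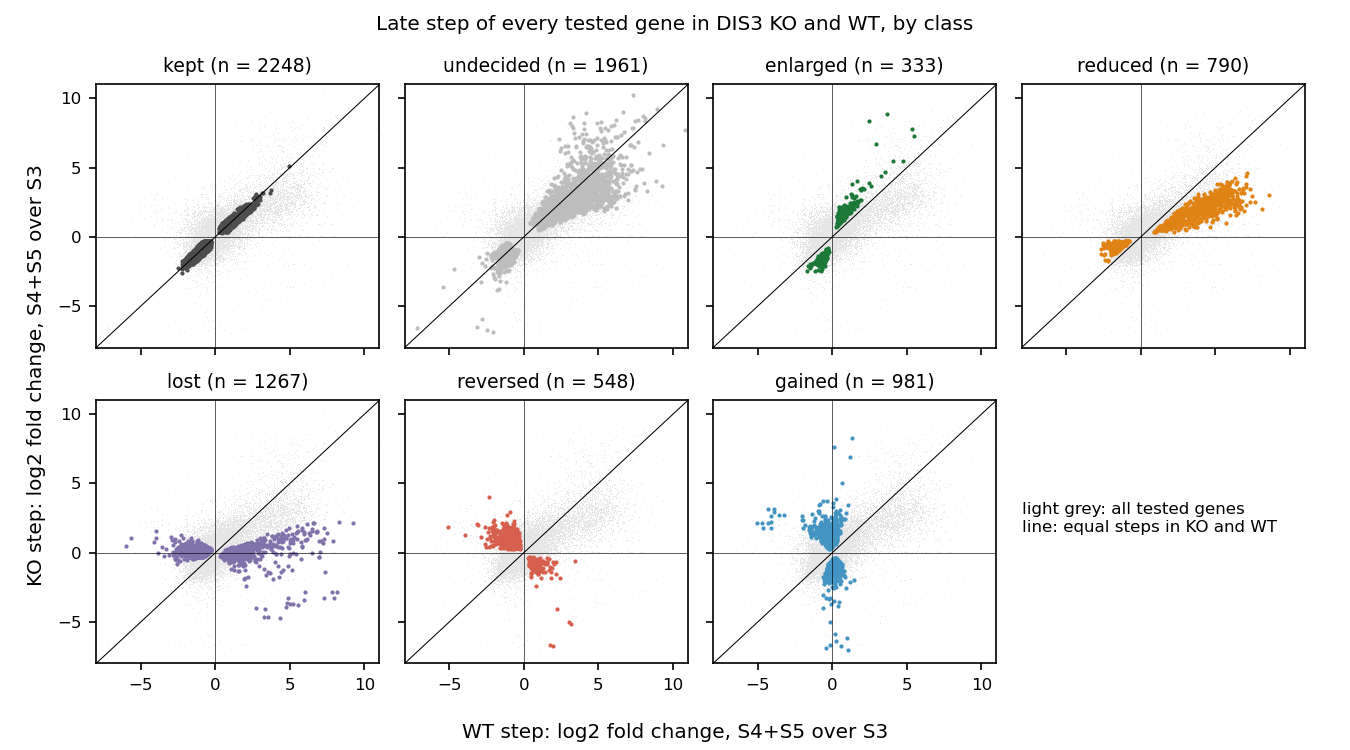
KO step (vertical axis) against WT step (horizontal axis), both as log2 fold change of S4+S5 over S3, with 1 panel per class and all tested genes in light grey; the diagonal marks equal steps. The 2248 kept genes lie along the diagonal, the 790 reduced genes between it and the horizontal axis, and the 548 reversed genes in the quadrants where the steps have opposite signs.

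Of the 4693 genes that rose in WT, 1234 (26.3%) had an interaction against the rise and 183 (3.9%) one along it. Of the 3967 that fell, 1371 (34.6%) had an interaction against the fall and 150 (3.78%) one along it. The WT step enters both the choice and the interaction, which favours a smaller KO step, so these shares are descriptions. Levels differed between the classes. The 607 reduced rises had a median level of 8.5 CPM in KO S4+S5, 1.79 CPM in KO S3, 32.1 CPM in WT S4+S5 and 1.64 CPM in WT S3. The 929 kept rises had medians of 94.5 CPM in KO S4+S5, 48.2 CPM in KO S3, 87.8 CPM in WT S4+S5 and 45.6 CPM in WT S3, so the reduced rises were genes of low level in S3.

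Globins, the protein of hemoglobin, rose at the late step in both genotypes. All 4 adult globin genes and all 3 embryonic ones tested had called rises in KO and in WT, with a median KO step of 2.64 and a median WT step of 3.28 for the adult genes, against 0.28 and 0.02 over all tested genes. Hbb-bs, a beta-globin gene, had 2184 and 2278 CPM in KO S4+S5, 423 and 352 CPM in KO S3, 4019 and 5612 CPM in WT S4+S5, and 682 and 417 CPM in WT S3. Its level in WT S4+S5 was above that in KO S4+S5 in every sample, and the S3 groups overlapped. The interaction was -0.61 ± 0.28 (SE; adjusted p = 0.118) and was not called, but it was called, always as lower in KO, in 6 of 15 alternative settings. Hbb-bt had an interaction of -0.61, and the near-identical copies Hba-a1 and Hba-a2, whose reads the counting may split unevenly, had -0.53 and -1.22, so all 4 adult genes pointed to a smaller rise in KO without a call. Over the alternatives, 0 to 4 of them were called lower, all 4 without the summed sample of WT S3 or without that of WT S4+S5. The embryonic gene Hbb-y had 1549 and 1619 CPM in KO S4+S5, 2.77 and 2.45 CPM in KO S3, 1207 and 1718 CPM in WT S4+S5, and 4.63 and 1.16 CPM in WT S3. It was near 0 in S3 and above 1000 CPM in S4+S5 in both genotypes, with KO and WT overlapping. The depletion kit includes probes against globin transcripts, so globin levels here are those left after depletion.

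Slc4a1 and Alas2, both among the abundant red cell genes, rose at the late step in KO and in WT. Slc4a1, the band 3 anion exchanger, had 28750 and 28330 CPM in KO S4+S5, 14480 and 12830 CPM in KO S3, 32970 and 37600 CPM in WT S4+S5, and 17450 and 14750 CPM in WT S3. Both S4+S5 groups lay above both S3 groups, with WT above KO in each fraction. The KO step of 1.06 and the WT step of 1.13 differed by -0.07 ± 0.23 (SE; adjusted p = 0.859), and the change was kept, although without the summed sample of WT S4+S5 the interaction was -0.48 and called. Alas2, the erythroid enzyme of the first step of heme synthesis, had 11000 and 11310 CPM in KO S4+S5, 2468 and 2068 CPM in KO S3, 14110 and 15800 CPM in WT S4+S5, and 2578 and 2026 CPM in WT S3. Its S3 groups overlapped and WT S4+S5 was higher than KO S4+S5. Its interaction of -0.40 ± 0.22 (SE; adjusted p = 0.196) was not called, but 8 of 15 alternatives called it lower in KO, among them the DESeq2 test and leaving out the summed sample of WT S3 (-0.58), either sample of WT S4+S5 (-0.80 and -0.69) or replicate 2 of KO S4+S5 (-0.75).

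Most division genes fell together in KO and WT. All 26 S-phase genes fell in both genotypes (median KO step -1.65, median WT step -1.72), and 23 of the 26 were kept. Of 24 genes of G2 and mitosis, 20 fell in KO and 21 in WT. Kept changes of that list numbered 21, of which 19 were falls and 2 were rises. Of 60 replication-dependent histone genes, 55 fell in KO and 56 in WT. Hist1h4b, a core histone gene, had 25.3 and 29.7 CPM in KO S4+S5, 121 and 127 CPM in KO S3, 36.3 and 42.4 CPM in WT S4+S5, and 197 and 180.4 CPM in WT S3. S4+S5 was below S3 in both genotypes, and KO was below WT in each fraction, with equal steps (interaction 0.08 ± 0.18 (SE; adjusted p = 0.792)). The 3 S-phase genes with a higher late step in KO include Rrm2, the small subunit of ribonucleotide reductase, which had 222 and 242 CPM in KO S4+S5, 473 and 482 CPM in KO S3, 139 and 136 CPM in WT S4+S5, and 568 and 515 CPM in WT S3. In KO S4+S5 it stayed above every WT S4+S5 sample although it was lower in KO than in WT at S3, and its interaction was 0.94 ± 0.16 (SE; adjusted p = 0.000366). Aurkb, a mitotic kinase, and Tcf19 instead fell further in KO, with interactions of -0.80 ± 0.20 (SE; adjusted p = 0.00621) and -0.74 ± 0.19 (SE; adjusted p = 0.00723). Aurkb had 24.9 and 23 CPM in KO S4+S5, 83.2 and 74.2 CPM in KO S3, 59.2 and 80.4 CPM in WT S4+S5, and 131 and 129.7 CPM in WT S3, so that KO S4+S5 was the lowest of the 4 groups. Counts of lower S-phase and mitotic calls grew to 9 and 11 without replicate 2 of WT S4+S5, which also shifted the median of all genes.

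The 15 heme genes divided by their course in WT. Of these, 7 (among them Alas2, Urod, Fech, Slc25a37, Glrx5 and Fam210b) rose in WT and all were kept, whereas 7 fell in WT (among them Alad, Uros, Cpox, Slc25a38, Tmem14c and Abcb10) and all of them had a higher late step in KO, as 34.6% of all genes that fell in WT did. In total 8 of 15 interactions were called higher and 0 lower, against 15.2% and 12% of all genes, with a median of 0.59 against 0.07 over all genes. The numbers of higher calls were 5 without the summed sample of WT S4+S5, 4 without that of KO S4+S5 and 5 without replicate 2 of KO S4+S5, and up to 3 members were then called lower.

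Tmem14c (chr13:41016292-41022586, plus strand), an inner mitochondrial membrane protein needed to move porphyrin into the matrix, changed most. It had 428 and 379.8 CPM in KO S4+S5, 476 and 380.4 CPM in KO S3, 83.1 and 92.1 CPM in WT S4+S5, and 476 and 473 CPM in WT S3. WT S4+S5 stood alone, far below the other groups, which overlapped. The WT fall of -2.44 was absent from KO (KO step -0.08), and the interaction was 2.36 ± 0.18 (SE; adjusted p = 1.71e-07). Uros, the synthase that closes the porphyrin ring, had 368 and 351 CPM in KO S4+S5, 306 and 298 CPM in KO S3, 143 and 156 CPM in WT S4+S5, and 354 and 336 CPM in WT S3. Again WT S4+S5 was below all other samples, and the interaction was 1.46 ± 0.16 (SE; adjusted p = 4.45e-06). Cpox, the coproporphyrinogen oxidase, showed the same order with 2095 and 1934 CPM in KO S4+S5, 1973 and 1844 CPM in KO S3, 944 and 1005 CPM in WT S4+S5, and 2002 and 1840 CPM in WT S3 and an interaction of 1.06 ± 0.18 (SE; adjusted p = 0.000299). Ppox, which acts on the next intermediate, had 1463 and 1253 CPM in KO S4+S5, 766 and 685 CPM in KO S3, 588 and 701 CPM in WT S4+S5, and 756 and 714 CPM in WT S3. Here KO S4+S5 was above the other 3 groups, WT had no called step, and the interaction was 1.10 ± 0.19 (SE; adjusted p = 0.000339). For Slc25a38, the mitochondrial glycine carrier, the interaction was 1.07 ± 0.21 (SE; adjusted p = 0.00126), and it was 0.57 and not called without the summed sample of KO S4+S5.

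Promoter sequences of the heme genes are shown because the members divided by their course in WT. They are windows of 300 bases, 250 before and 50 after the RefSeq start (GRCm38.p6), given 5′ to 3′ on the strand of the gene, and capitals mark the motif found. Alas2 (chrX:150547167-150547466, plus strand), kept, holds the reverse complement of AGATAA, a core of GATA factor binding. Uros (chr7:133709246-133709545, minus strand), lost, holds CACGTG, an E-box. Mybbp1a (chr11:72441077-72441376, plus strand), a nucleolar protein whose fall was gained in KO, holds the same E-box and is shown beside them.
Alas2: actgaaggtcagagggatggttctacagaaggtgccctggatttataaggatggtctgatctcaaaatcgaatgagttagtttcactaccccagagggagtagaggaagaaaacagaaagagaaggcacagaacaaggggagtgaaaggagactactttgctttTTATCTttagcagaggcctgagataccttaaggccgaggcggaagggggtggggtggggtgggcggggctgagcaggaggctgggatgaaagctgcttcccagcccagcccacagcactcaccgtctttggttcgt
Uros: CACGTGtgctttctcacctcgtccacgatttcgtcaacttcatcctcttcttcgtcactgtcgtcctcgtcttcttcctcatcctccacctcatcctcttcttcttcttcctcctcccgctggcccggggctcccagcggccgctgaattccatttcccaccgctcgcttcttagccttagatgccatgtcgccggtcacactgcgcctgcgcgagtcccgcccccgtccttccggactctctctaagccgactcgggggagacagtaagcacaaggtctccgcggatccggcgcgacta
Mybbp1a: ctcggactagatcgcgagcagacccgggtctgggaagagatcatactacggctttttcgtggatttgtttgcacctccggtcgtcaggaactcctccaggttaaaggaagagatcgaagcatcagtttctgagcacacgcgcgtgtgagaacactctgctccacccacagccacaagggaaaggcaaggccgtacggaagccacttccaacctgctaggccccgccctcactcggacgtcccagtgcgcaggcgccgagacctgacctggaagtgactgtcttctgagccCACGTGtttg
A set of 5 motifs was searched on both strands, none of which contains another. These were AGATAA (bound by GATA factors), CACGTG (an E-box, its own reverse complement) and CCACACCC (known from KLF1 sites). TGACTCA (known from AP-1 sites) and GGGCATG (a piece of p53 sites) completed the set. CACGTG was present in 3 of 11 heme genes with a window (27.3%; Alad, Urod and Uros), 6 of 23 ribosome biogenesis genes (26.1%) and 6 of 23 p53 targets (26.1%), against 7.15% of all 32851 promoter windows and 8.09% of 27025 genes. AGATAA was present in 2 of the 11 heme genes (Alas2 and Cpox), in 11.2% of all windows and in 12.7% of all genes. The other 3 motifs were in 0 or 1 genes of each of the 3 lists. Over all genes they were in 4.09% (CCACACCC), 5.95% (TGACTCA) and 4.36% (GGGCATG). The 3 heme genes with CACGTG include Urod, which was kept, beside Alad and Uros, which were lost, so the motif did not divide the list as the late step did. A match describes the letters of the window and nothing about binding.

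Of 14 genes of iron uptake, storage and heme handling, 5 had a higher and 2 a lower late step in KO, against 15.2% and 12% of all genes, so the lower count was near the background. Of the 5 that fell in WT, 4 had an interaction against the fall, against 34.6% of all genes that fell. Tfrc, the transferrin receptor and the CD71 protein on which the fractions were sorted, had 2915 and 2691 CPM in KO S4+S5, 2843 and 2892 CPM in KO S3, 2342 and 2124 CPM in WT S4+S5, and 3790 and 3704 CPM in WT S3. In WT, S4+S5 was lowest and S3 highest, whereas the KO fractions overlapped. Its transcript thus fell in WT and had no called step in KO, with an interaction of 0.71 ± 0.18 (SE; adjusted p = 0.00762). Because the gate itself selects on CD71, the WT fall is no independent result. The interaction was 0.27 without replicate 2 of WT S4+S5, 0.30 without the summed sample of KO S4+S5 and 0.44 without replicate 2 of KO S4+S5, and was then not called. Tfr2, the second transferrin receptor, had 92.4 and 73.7 CPM in KO S4+S5, 104 and 83.9 CPM in KO S3, 32.3 and 36.8 CPM in WT S4+S5, and 101 and 110.5 CPM in WT S3. Only WT S4+S5 lay apart, below the other samples, and the interaction was 1.45 ± 0.20 (SE; adjusted p = 4.59e-05). Steap3, the endosomal ferric reductase, had 90.6 and 80.6 CPM in KO S4+S5, 142 and 135 CPM in KO S3, 41 and 56 CPM in WT S4+S5, and 218 and 225 CPM in WT S3. It fell in both genotypes, less in KO, with an interaction of 1.52 ± 0.19 (SE; adjusted p = 1.89e-05). Aco1, the iron regulatory protein 1, moved the other way with 7.59 and 4.73 CPM in KO S4+S5, 8.17 and 6.78 CPM in KO S3, 17.3 and 17.4 CPM in WT S4+S5, and 8.35 and 9.69 CPM in WT S3. The highest group was WT S4+S5, and the interaction of -1.17 ± 0.31 (SE; adjusted p = 0.0105) lost its call without the summed sample of WT S3 (-1.06) or of KO S3 (-1.01). Higher calls in the list numbered 3 without either sample of WT S4+S5 and 2 without either sample of KO S4+S5, and lower calls 0 without the summed sample of KO S3, 4 without replicate 2 of WT S4+S5 and 5 without the summed sample of KO S4+S5.

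Of 24 membrane and skeleton genes, 11 rose in WT and 9 of these were kept, where 929 of the 4693 rising genes overall were. Kept also requires a narrow interval, which genes of few counts seldom reach, so these shares cannot be compared without regard to level. Kept rises had a median of 45.6 CPM in WT S3, and the 1552 undecided rises had 0.343 CPM. All 3 genes of the list that fell in WT (Aqp1, Gypc and Icam4) had a higher late step in KO, against 34.6% of all falling genes. Aqp1, the water channel, had 7.26 and 3.55 CPM in KO S4+S5, 7.16 and 6.78 CPM in KO S3, 28.6 and 41.4 CPM in WT S4+S5, and 162 and 181 CPM in WT S3. WT S3 was far above the other groups, and both KO groups were below WT S4+S5, so the KO level was already low at S3. Its interaction was 2.09 ± 0.31 (SE; adjusted p = 8.71e-05), and it was 0.99 and not called without the summed sample of KO S4+S5. Gypc, glycophorin C, had 372 and 352 CPM in KO S4+S5, 359 and 336 CPM in KO S3, 240.1 and 254 CPM in WT S4+S5, and 430.2 and 396 CPM in WT S3 and an interaction of 0.80 ± 0.16 (SE; adjusted p = 0.00128), which was 0.41 and not called without the summed sample of KO S4+S5. Epb41, the protein that ties spectrin to the membrane, had 11520 and 12170 CPM in KO S4+S5, 3299 and 2878 CPM in KO S3, 15510 and 15610 CPM in WT S4+S5, and 2811 and 2154 CPM in WT S3. Both S4+S5 groups were above both S3 groups, with WT S4+S5 highest. The rise was reduced in KO (-0.71 ± 0.22 (SE; adjusted p = 0.0236)), a call lost at -0.60 without the summed sample of KO S3. The list's count of 7 higher calls was 3 with the size factors of DESeq2 and ranged from 0, without the summed sample of KO S4+S5, to 14, with every library counted as a sample. Leaving out either sample of any other group except replicate 2 of WT S3 gave 2 to 4.

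Among erythroid transcription factors and Epo signalling genes, 7 of 10 members that rose in WT were kept. Of 9 that fell in WT, 5 had an interaction against the fall, against 34.6% of all falling genes, and 2 were kept. Ldb1, the adaptor that joins GATA1 complexes at distant enhancers, had 126 and 107 CPM in KO S4+S5, 121 and 113 CPM in KO S3, 59.7 and 80.6 CPM in WT S4+S5, and 185 and 187 CPM in WT S3. WT S4+S5 was lowest, the KO fractions overlapped, and the interaction was 1.42 ± 0.19 (SE; adjusted p = 4.2e-05). Gata1, the X-linked master factor of the lineage, had 351 and 344 CPM in KO S4+S5, 278 and 272 CPM in KO S3, 189 and 244 CPM in WT S4+S5, and 309.6 and 271 CPM in WT S3. It was called higher in S4+S5 than in S3 in KO and lower in WT, with an interaction of 0.76 ± 0.18 (SE; adjusted p = 0.0049), which was 0.26 without the summed sample of WT S4+S5, 0.40 without that of KO S4+S5 and 0.45 without replicate 2 of KO S4+S5, and then not called. Gfi1b, a repressor that acts with GATA1, had an interaction of 0.81 ± 0.17 (SE; adjusted p = 0.0017), and 0.43 and 0.41, not called, without the summed sample of WT S4+S5 and of KO S4+S5. Bcl2l1, the survival factor BCL-XL, had 2347 and 2334 CPM in KO S4+S5, 744 and 602 CPM in KO S3, 3837 and 5250 CPM in WT S4+S5, and 734 and 512 CPM in WT S3. It rose in both, with KO S4+S5 below every WT S4+S5 sample, and the rise was reduced in KO (-1.07 ± 0.25 (SE; adjusted p = 0.00435)). Without the summed sample of WT S4+S5, the summed sample of KO S4+S5, replicate 2 of KO S4+S5 or replicate 2 of KO S3, the 7 higher calls of the list became 2, 1, 2 and 4.

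Genes of organelle clearance and enucleation more often had a lower late step in KO. Of 24 members, 8 had a lower and 1 a higher one, against 12% and 15.2% of all genes (median -0.41, against 0.07 over all genes), while 11 of the 21 that rose in WT were kept. All 8 lower calls lay among those 21, and 26.3% of all genes that rose in WT had an interaction against the rise. The excess over genes of a like course was therefore smaller. Xpo7, a nuclear exporter involved in nuclear condensation in mouse erythroblasts, had 8624 and 8439 CPM in KO S4+S5, 3291 and 2792 CPM in KO S3, 16400 and 15880 CPM in WT S4+S5, and 3228 and 2127 CPM in WT S3. The S3 groups overlapped and WT S4+S5 was highest. The KO step was 1.49, the WT step 2.59 and the interaction -1.10 ± 0.25 (SE; adjusted p = 0.00309). Atg7, an enzyme of autophagosome formation, had 10.9 and 10.8 CPM in KO S4+S5, 13 and 12 CPM in KO S3, 24.6 and 24.7 CPM in WT S4+S5, and 13.9 and 14.9 CPM in WT S3. The highest group was WT S4+S5. The gene rose in WT with no called step in KO, and the interaction was -0.99 ± 0.23 (SE; adjusted p = 0.00404). Ube2o, the ubiquitin-conjugating enzyme of ribosome clearance, had an interaction of -0.87 ± 0.26 (SE; adjusted p = 0.0187), which was -0.66 and not called without the summed sample of KO S3. Wipi1, another autophagy protein, was the 1 member with a higher late step. It had 61.2 and 56.8 CPM in KO S4+S5, 60.3 and 57.3 CPM in KO S3, 24.2 and 25.6 CPM in WT S4+S5, and 74.4 and 72.4 CPM in WT S3, so that WT S4+S5 stood below the others, and its interaction was 1.57 ± 0.17 (SE; adjusted p = 3.5e-06). The 8 lower calls became 14 with the size factors of DESeq2, 3 without replicate 2 of WT S3 or the summed sample of KO S3, and 14 to 16 without any 1 sample of S4+S5.

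**Figure D2:**
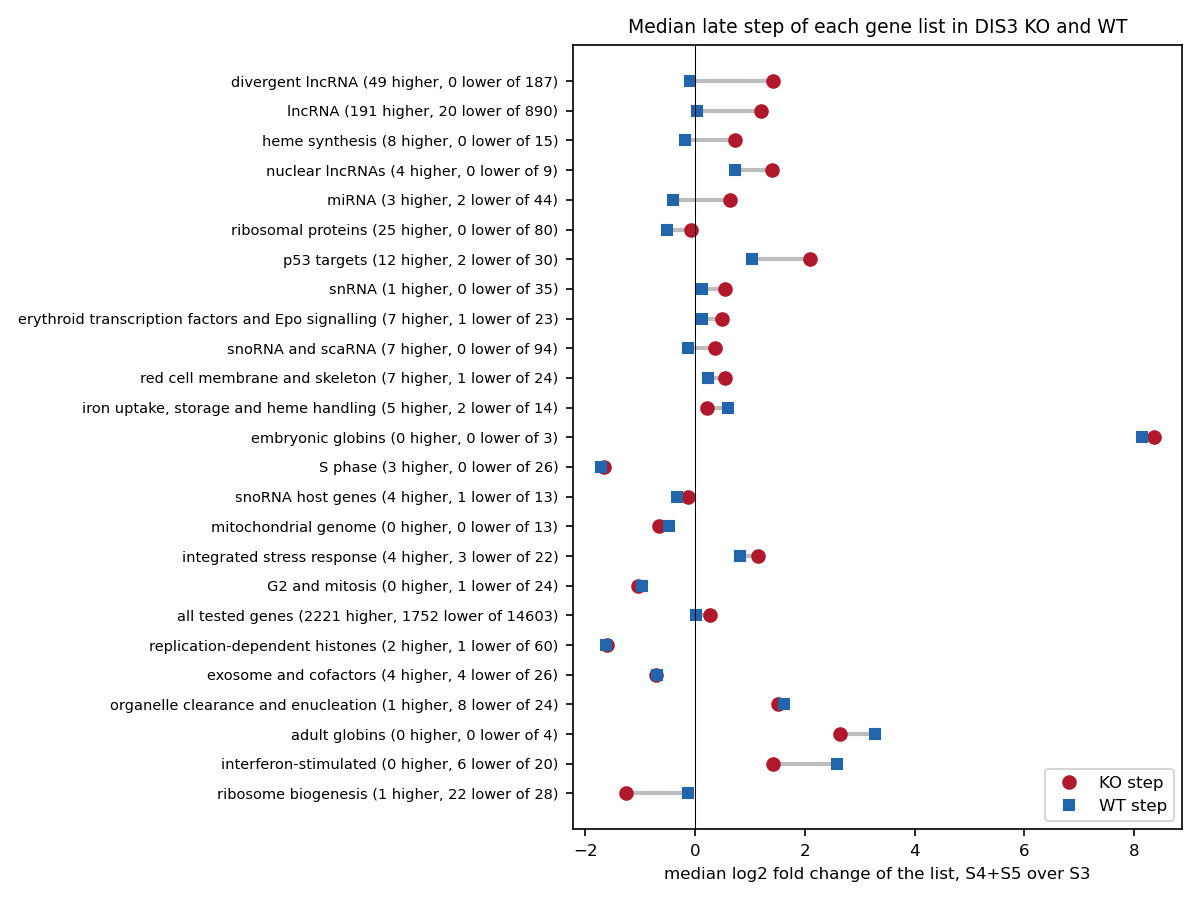
Median late step (log2 fold change of S4+S5 over S3) of each gene list in KO (red circles) and WT (blue squares), ordered by the median interaction, with the number of members called higher and lower in brackets. Ribosome biogenesis lies at the bottom with medians of -1.26 in KO and -0.12 in WT, divergent lncRNAs at the top with 1.42 and -0.10, and S-phase and histone genes have nearly equal steps.

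Ribosome biogenesis genes fell in KO and hardly moved in WT. Of 28 members, 26 fell in KO, against 10 in WT, and the interaction was lower in 22 and higher in 1 (12% and 15.2% of all genes), with a median of -0.93 against 0.07 over all genes. Of these 22, 14 were gained falls and 7 enlarged ones, and Rrp1b reversed. Rrp1b, a nucleolar protein of ribosomal RNA processing, had 6.94 and 5.07 CPM in KO S4+S5, 15.2 and 15.6 CPM in KO S3, 20.8 and 23.6 CPM in WT S4+S5, and 11.6 and 11.3 CPM in WT S3. KO S4+S5 was lowest and WT S4+S5 highest, with no overlap between any groups, and the interaction was -2.25 ± 0.26 (SE; adjusted p = 9.38e-06). Rrp12, known from yeast for its part in the export of ribosomal subunits, had 7.53 and 10.1 CPM in KO S4+S5, 26.2 and 23.2 CPM in KO S3, 15.6 and 30 CPM in WT S4+S5, and 18.7 and 18.3 CPM in WT S3. The KO fall was called and the WT step was not, and the interaction was -1.80 ± 0.33 (SE; adjusted p = 0.000663). Rrp9, a protein of the U3 small nucleolar particle, and Nop16 had interactions of -2.02 ± 0.44 (SE; adjusted p = 0.00255) and -2.02 ± 0.41 (SE; adjusted p = 0.00143). Mybbp1a, named for its promoter after its values were seen, had 37.3 and 35.1 CPM in KO S4+S5, 105 and 108 CPM in KO S3, 82.2 and 101 CPM in WT S4+S5, and 87.4 and 83.2 CPM in WT S3. The KO S4+S5 level was below the other groups by more than the spread between samples, and the interaction was -1.64 ± 0.17 (SE; adjusted p = 3.38e-06). Tsr1, a factor of small subunit maturation outside the list, likewise fell in KO alone (-1.48 ± 0.22 (SE; adjusted p = 9.32e-05)). The 1 member called higher was Dkc1, the pseudouridine synthase, at 0.60 ± 0.17 (SE; adjusted p = 0.014), and no member was called higher in most alternatives. Lower calls in the list numbered 18 to 26 over all 15 alternatives.

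Ribosomal protein genes with a called interaction had a higher late step in KO. Of 80 tested, 25 had a higher one and 0 a lower one, against 15.2% and 12% of all genes. The median was 0.45 against 0.07, and 43 fell in WT against 10 in KO. Of the 43 falls in WT, 16 were lost and 4 reversed, where 34.6% of all falling genes had an interaction against the fall. The excess over genes of a like course was therefore smaller. Rps4x, an X-linked protein of the small subunit, had 242 and 251 CPM in KO S4+S5, 214 and 225 CPM in KO S3, 119 and 111 CPM in WT S4+S5, and 234 and 205 CPM in WT S3. WT S4+S5 was below all other samples, and the interaction was 1.10 ± 0.16 (SE; adjusted p = 8.71e-05). The count is unstable: 13 with the size factors of DESeq2, 44 with every library as a sample, and 5 and 15 without the summed sample and replicate 2 of WT S4+S5, 5 and 4 without those of KO S4+S5, 15 and 14 without those of KO S3 and 11 without the summed sample of WT S3. As many as 8 were called lower without the summed sample of WT S4+S5. These genes have many processed pseudogenes, so their counts are uncertain.

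Of 26 exosome genes and cofactors, 4 had a higher and 4 a lower late step in KO, near the 15.2% and 12% of all genes, so the counts say nothing particular of the list. Exosc7, a subunit of the ring, had 3.8 and 3.38 CPM in KO S4+S5, 13.9 and 12.7 CPM in KO S3, 8.78 and 10.4 CPM in WT S4+S5, and 12.6 and 15.1 CPM in WT S3. Both KO S4+S5 samples were below every other sample, and the interaction was -1.33 ± 0.30 (SE; adjusted p = 0.00334). Mphosph6, a cofactor of the nuclear exosome, and Exosc9, another ring subunit, instead fell in WT and had no called step in KO, with interactions of 1.24 ± 0.35 (SE; adjusted p = 0.0141) and 1.05 ± 0.26 (SE; adjusted p = 0.00574). Over the alternatives, higher calls numbered 0 to 7 and lower calls 1 to 10, with 0 higher and 10 lower without replicate 2 of KO S4+S5.

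The p53 target genes were on average higher in KO at both fractions and many rose further at the late step. Of 30 members, 27 rose in KO and 18 in WT (median KO step 2.1, median WT step 1.04). The interaction was higher in 12 and lower in 2, against 15.2% and 12% of all genes, with a median of 0.42 and between 10 and 13 higher calls over the alternatives. Between genotypes, 24 members were higher and 4 lower in KO S4+S5 than in WT S4+S5, where 24.5% and 26.8% of all tested genes were, and 19 were higher and 1 lower in KO S3, where 8.16% and 11.5% of all were.

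Mdm2, the ubiquitin ligase that restrains p53, had 564 and 539.7 CPM in KO S4+S5, 103 and 100.5 CPM in KO S3, 51.4 and 50.9 CPM in WT S4+S5, and 48.4 and 43.4 CPM in WT S3. The WT step was not called, KO S3 was above both WT groups, and KO S4+S5 was above all. The rise was gained in KO, with an interaction of 2.28 ± 0.16 (SE; adjusted p = 6.3e-08). Cdkn1a, the cell cycle inhibitor p21, had 1625 and 1448 CPM in KO S4+S5, 288 and 217 CPM in KO S3, 19.3 and 16.5 CPM in WT S4+S5, and 2.9 and 2.68 CPM in WT S3. Its level was far higher in KO in each fraction, but the KO step of 2.60 and the WT step of 2.69 were alike and the change was kept (interaction -0.08 ± 0.24 (SE; adjusted p = 0.83)). Sesn2, a stress-induced regulator of growth signalling, had 329 and 405 CPM in KO S4+S5, 55.1 and 52 CPM in KO S3, 17.9 and 22.1 CPM in WT S4+S5, and 18.2 and 14.7 CPM in WT S3. Its WT fractions overlapped and its KO rise was gained, with an interaction of 2.51 ± 0.21 (SE; adjusted p = 3.15e-07). Psrc1, a microtubule-associated protein, reversed. It had 187 and 162 CPM in KO S4+S5, 57.4 and 57.2 CPM in KO S3, 10.8 and 10.3 CPM in WT S4+S5, and 25.2 and 24.4 CPM in WT S3, with no overlap between groups, and an interaction of 2.83 ± 0.18 (SE; adjusted p = 4.88e-08). Phlda3, an inhibitor of AKT, had 51.6 and 47.1 CPM in KO S4+S5, 9.96 and 9.64 CPM in KO S3, 0.426 and 0.757 CPM in WT S4+S5, and 0.941 and 0.404 CPM in WT S3. It was under 1 CPM in WT and highest in KO S4+S5, with an interaction of 2.68 ± 0.53 (SE; adjusted p = 0.00118), which was 1.90 and not called without the summed sample of WT S3. Rps27l lost its WT fall (1.19 ± 0.24 (SE; adjusted p = 0.00138)).

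Of 22 stress genes of the ATF4 pathway, 4 were higher and 3 lower, with a median of 0.09, near the 15.2%, 12% and 0.07 of all genes. Ddit3, the factor CHOP, had 25.6 and 23.8 CPM in KO S4+S5, 8.67 and 7.93 CPM in KO S3, 9.46 and 11.8 CPM in WT S4+S5, and 10.7 and 9.95 CPM in WT S3. Both KO S4+S5 samples were above the others, and the interaction was 1.55 ± 0.26 (SE; adjusted p = 0.000258). Phgdh and Psat1, enzymes of serine synthesis, had lower late steps in KO at -1.87 ± 0.36 (SE; adjusted p = 0.000837) and -1.23 ± 0.20 (SE; adjusted p = 0.000181). Phgdh had 7.98 and 5.91 CPM in KO S4+S5, 17.7 and 12.9 CPM in KO S3, 16.6 and 30.9 CPM in WT S4+S5, and 13.7 and 13.7 CPM in WT S3, so it was lowest in KO S4+S5. Higher calls numbered 1 to 2 without the summed sample of WT S3 or of WT S4+S5 or without either sample of KO S4+S5, and lower calls 5 to 7 without either sample of WT S4+S5 or replicate 2 of KO S4+S5.

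Among single genes, the largest reversals were of falling genes. Zbtb46 (chr2:181387762-181459426), a zinc-finger transcription factor otherwise known from dendritic cells, had 122 and 105 CPM in KO S4+S5, 61.6 and 53.1 CPM in KO S3, 7.33 and 7.72 CPM in WT S4+S5, and 41.7 and 43.5 CPM in WT S3. KO S4+S5 was above the other groups and WT S4+S5 below them, with no overlap, and the interaction was 3.5 ± 0.20 (SE; adjusted p = 2.97e-08). Car1, a carbonic anhydrase of red cells, had 85.1 and 69.1 CPM in KO S4+S5, 16.7 and 19.9 CPM in KO S3, 8.01 and 10.6 CPM in WT S4+S5, and 24.9 and 24.1 CPM in WT S3. The fractions overlapped in neither genotype, with opposite order, and the interaction was 3.53 ± 0.23 (SE; adjusted p = 4.88e-08). St3gal6, a sialyltransferase, had 69.1 and 60.5 CPM in KO S4+S5, 49.4 and 49.3 CPM in KO S3, 9.21 and 7.12 CPM in WT S4+S5, and 47.4 and 50.1 CPM in WT S3. WT S4+S5 alone stood apart from the rest by several-fold, and the interaction was 2.94 ± 0.20 (SE; adjusted p = 5.43e-08). Mrap, an accessory protein of melanocortin receptors, gave 3.27 ± 0.30 (SE; adjusted p = 8.83e-07). Hyal1, a hyaluronidase, Rnf128, a ubiquitin ligase, Podn, a matrix proteoglycan, and Muc6, a mucin, were reversed as well, with interactions of 3.89, 3.85, 4.28 and 4.08 (adjusted p = 6.67e-06, 1.45e-06, 9.85e-06 and 7.57e-08).

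Fewer rising genes were reversed. Txndc5, a disulfide isomerase of the endoplasmic reticulum, had 5.24 and 7.1 CPM in KO S4+S5, 10.6 and 8.17 CPM in KO S3, 44.9 and 45.3 CPM in WT S4+S5, and 10.2 and 10.2 CPM in WT S3. Both WT S4+S5 samples were above all others, and the KO fractions did not overlap, with KO S4+S5 lower. The interaction was -2.83 ± 0.27 (SE; adjusted p = 1.01e-06). Ctsz, the lysosomal protease cathepsin Z, had 7.46 and 11.8 CPM in KO S4+S5, 17.4 and 15.2 CPM in KO S3, 58.3 and 50.6 CPM in WT S4+S5, and 13.1 and 13.9 CPM in WT S3 and an interaction of -2.87 ± 0.26 (SE; adjusted p = 6.76e-07). Bri3bp had 5.82 and 11.7 CPM in KO S4+S5, 12.3 and 12.9 CPM in KO S3, 52.2 and 67 CPM in WT S4+S5, and 15.9 and 14.9 CPM in WT S3; WT S4+S5 stood above the rest, and the interaction was -2.60 ± 0.31 (SE; adjusted p = 1.13e-05). In these 3, the summed markers of macrophages described below were also highest in WT S4+S5, and their part in these results was not tested.

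Other changes were enlarged, gained or reduced. Dpp7, a dipeptidyl peptidase, had 135 and 116 CPM in KO S4+S5, 3.05 and 2.37 CPM in KO S3, 49 and 74.5 CPM in WT S4+S5, and 3.76 and 3.58 CPM in WT S3. It rose in both genotypes and most in KO, with an interaction of 1.43 ± 0.29 (SE; adjusted p = 0.00158). Chga, which encodes chromogranin A, had 28.7 and 33 CPM in KO S4+S5, 2.49 and 2.62 CPM in KO S3, 2.73 and 2.88 CPM in WT S4+S5, and 3.1 and 2.37 CPM in WT S3. Only KO S4+S5 stood apart, and the gained rise had an interaction of 3.57 ± 0.35 (SE; adjusted p = 1.46e-06). Avpi1 and Fam160a1 were also gained rises, at 2.25 ± 0.47 (SE; adjusted p = 0.00172) and 2.47 ± 0.28 (SE; adjusted p = 6.87e-06). Mogs, the glucosidase that starts trimming of N-linked sugars, was a gained fall. It had 13.2 and 12.7 CPM in KO S4+S5, 40.7 and 44.6 CPM in KO S3, 43.4 and 54.5 CPM in WT S4+S5, and 45.7 and 47.5 CPM in WT S3, with only KO S4+S5 apart, and an interaction of -1.77 ± 0.20 (SE; adjusted p = 6.55e-06). Gpd2, the mitochondrial glycerol-3-phosphate dehydrogenase, gave -1.71 ± 0.26 (SE; adjusted p = 0.000117). Acp5, an acid phosphatase, had 110.5 and 103 CPM in KO S4+S5, 147 and 143 CPM in KO S3, 51.6 and 60.7 CPM in WT S4+S5, and 309 and 343 CPM in WT S3. It fell in both genotypes, less in KO, with an interaction of 2.1 ± 0.17 (SE; adjusted p = 2.32e-07), and Abcg4, a sterol transporter, likewise gave 1.48 ± 0.20 (SE; adjusted p = 3.54e-05).

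**Figure D3:**
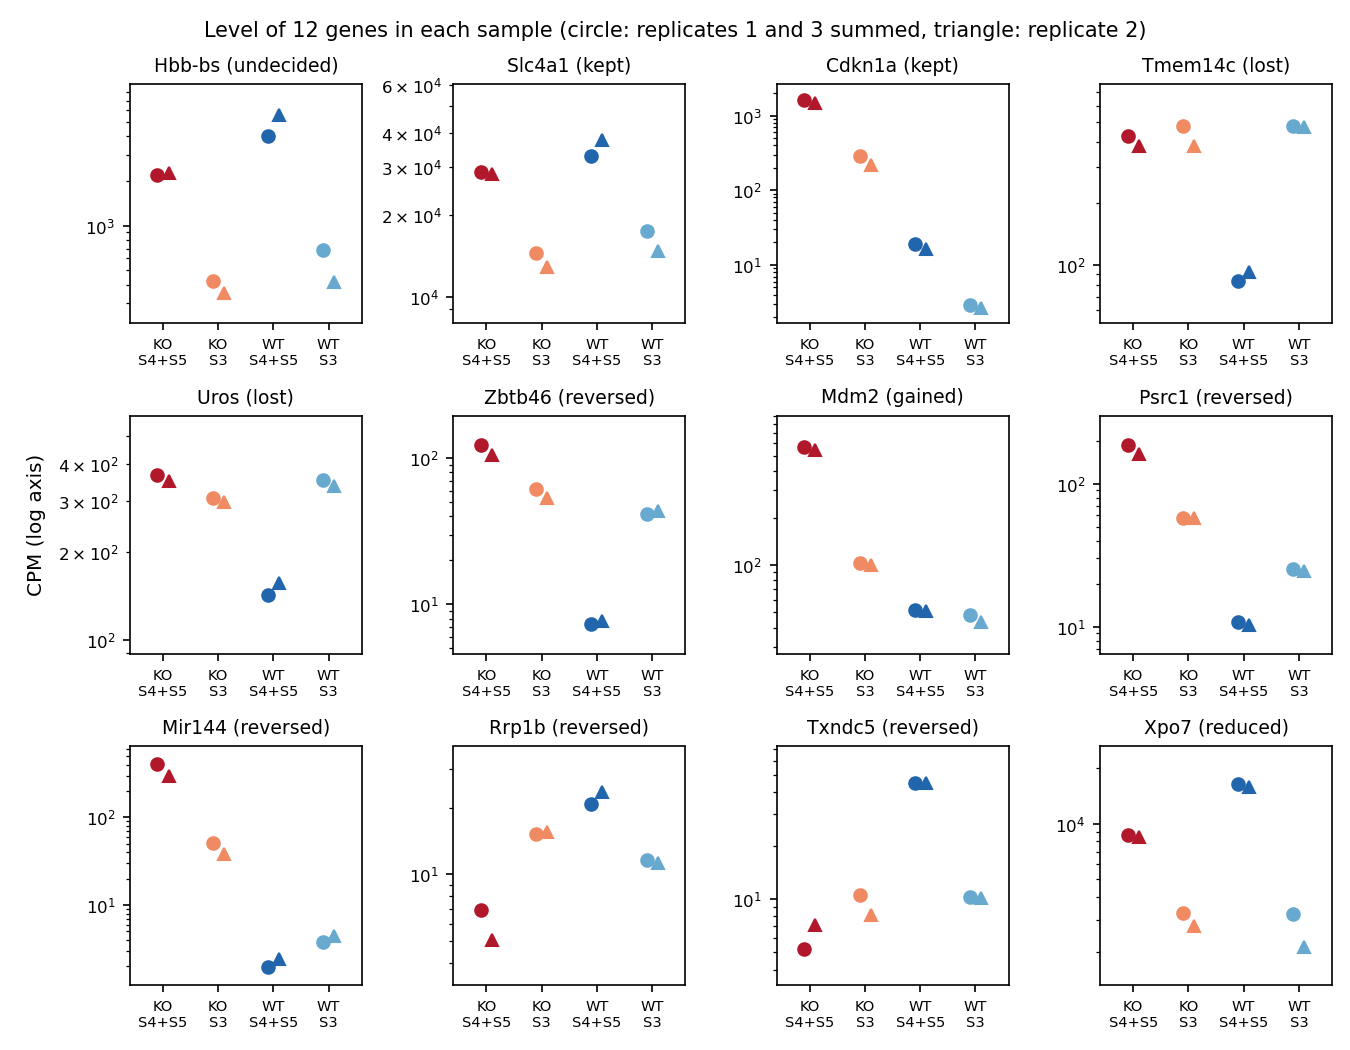
Level in CPM (log axis) of 12 genes in each sample, with circles for summed replicates 1 and 3 and triangles for replicate 2; groups run KO S4+S5, KO S3, WT S4+S5, WT S3. Tmem14c and Uros are low in WT S4+S5 alone, Mdm2 is highest in KO S4+S5 and near 50 CPM in both WT groups, and Zbtb46 and Psrc1 have opposite steps in KO and WT.

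Among non-coding genes, the long ones more often had a higher late step in KO. Of 890 long non-coding RNA (lncRNA) genes tested, 191 were higher and 20 lower (15.2% and 12% of all genes), with a median interaction of 0.84 against 0.07. The median KO step was 1.2 and the median WT step 0.04, and 470 rose in KO against 182 in WT. For the 187 divergent lncRNAs, which start within 1000 bases of a protein-coding gene on the other strand, 49 were higher and 0 lower, with a median of 1.22. By counts of calls alone, short classes did not stand above the background. Higher calls numbered 7 of 94 snoRNA and scaRNA genes, 1 of 35 snRNA genes and 3 of 44 miRNA genes. Lower calls numbered 0, 0 and 2. Their median interactions of 0.35, 0.39 and 0.56 were nevertheless above the 0.07 of all genes. In the alternatives the snRNA median stayed 0.212 to 0.893 and the miRNA median 0.101 to 1.106 above that of all genes. For snoRNA and scaRNA genes this distance ranged from -0.013 to 0.459. Numbers of higher calls fell to 112 of the lncRNAs with the DESeq2 test, to 127 without replicate 2 of WT S3, to 113 and 107 without the summed sample and replicate 2 of WT S4+S5 and to 96 without the summed sample of KO S4+S5. For the divergent lncRNAs, the DESeq2 test gave 25, and leaving out either sample of WT S3 or WT S4+S5, or the summed sample of KO S4+S5, gave 21 to 31. The median interaction of the divergent lncRNAs stayed between 1.042 and 1.445 above that of all genes in the alternatives, and that of all lncRNAs between 0.505 and 0.901 above it. The strand setting of the counting is not given in the sources used here, so reads of such genes may not be separated from those of their neighbours.

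Malat1, an abundant nuclear lncRNA, had 63170 and 59550 CPM in KO S4+S5, 14690 and 13900 CPM in KO S3, 13480 and 13120 CPM in WT S4+S5, and 6336 and 5990 CPM in WT S3. KO was above WT in each fraction and the late rise was larger in KO, with an interaction of 0.99 ± 0.21 (SE; adjusted p = 0.00236), which was 0.60 and not called without the summed sample of KO S4+S5. Kcnq1ot1, the imprinted transcript antisense to Kcnq1, had 679 and 581 CPM in KO S4+S5, 522 and 549 CPM in KO S3, 219.5 and 195 CPM in WT S4+S5, and 369 and 422 CPM in WT S3. WT S4+S5 was lowest, and the WT fall was lost in KO (1.17 ± 0.18 (SE; adjusted p = 0.000119)). Pvt1 had 31.6 and 29.4 CPM in KO S4+S5, 16 and 16.7 CPM in KO S3, 4.26 and 5.0 CPM in WT S4+S5, and 5.76 and 6.21 CPM in WT S3, a gained rise with an interaction of 1.30 ± 0.26 (SE; adjusted p = 0.00138). 1810012K08Rik and Gm45250 were reversed, with interactions of 4.0 ± 0.62 (SE; adjusted p = 0.00013) and 4.49 ± 0.47 (SE; adjusted p = 2.92e-06). Gm45250 had 32 and 22.6 CPM in KO S4+S5, 7.75 and 7.52 CPM in KO S3, 0.511 and 0.606 CPM in WT S4+S5, and 2.78 and 4.14 CPM in WT S3, so it was nearly absent from WT S4+S5 and highest in KO S4+S5. Snhg5, a host of small nucleolar RNAs, was among the lncRNAs that fell further in KO. It had 2.16 and 2.87 CPM in KO S4+S5, 11.8 and 12 CPM in KO S3, 7.67 and 10.6 CPM in WT S4+S5, and 14.8 and 14.6 CPM in WT S3, KO S4+S5 being the lowest group, and an interaction of -1.59 ± 0.33 (SE; adjusted p = 0.00175).

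The neighbouring microRNA genes Mir144 and Mir451a, which form the erythroid miR-144/451 cluster and are transcribed together, are shown by sequence because both had a called late rise in KO and none in WT. Sequences are from RefSeq (GRCm38.p6), plus strand, 5′ to 3′. The Mir144 hairpin lies at chr11:78073005-78073070 and that of Mir451a at chr11:78073170-78073241. Capitals mark the mature arms in the hairpins and the seed, bases 2 to 8, in the mature sequences.
Mir144 hairpin: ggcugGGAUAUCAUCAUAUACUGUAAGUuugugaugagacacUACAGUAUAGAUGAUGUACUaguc
miR-144-5p: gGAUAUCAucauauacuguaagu
miR-144-3p: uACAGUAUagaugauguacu
Mir451a hairpin: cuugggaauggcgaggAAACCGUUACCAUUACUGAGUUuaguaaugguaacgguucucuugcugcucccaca
miR-451a: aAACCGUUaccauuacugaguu
The 3 mature sequences have 3 different seeds. Mir144 had 402 and 293 CPM in KO S4+S5, 50.8 and 38.2 CPM in KO S3, 1.96 and 2.42 CPM in WT S4+S5, and 3.8 and 4.49 CPM in WT S3. KO S4+S5 was highest by far, KO S3 was also above both WT groups, and the WT fractions stayed under 5 CPM. It rose in KO and fell in WT, with an interaction of 3.90 ± 0.33 (SE; adjusted p = 3.56e-07). Mir451a had 396 and 285 CPM in KO S4+S5, 54.9 and 37.1 CPM in KO S3, 2.64 and 3.79 CPM in WT S4+S5, and 1.33 and 2.07 CPM in WT S3, in the same order between genotypes. The WT samples of Mir451a were also higher in S4+S5 than in S3, but the WT step of 0.88 was not called (adjusted p = 0.0544). Its interaction was 1.99 ± 0.41 (SE; adjusted p = 0.00179), and 1.37 and not called without the summed sample of WT S4+S5. Reads over these genes in a total RNA library are from precursor transcripts, not from the mature microRNAs, which are too short to be retained, and the counts of such short genes also hold reads of any longer transcript that spans them.

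Summed markers of macrophages, granulocytes, lymphoid cells, stem and progenitor cells and endothelial cells were highest in WT S4+S5. Summed CPM of 18 macrophage markers was 84.7 and 115 in KO S4+S5, 16.1 and 9.07 in KO S3, 1486 and 1043 in WT S4+S5, and 29.7 and 32.9 in WT S3. That of 12 granulocyte markers was 79.7 and 101 in KO S4+S5, 33.8 and 17.9 in KO S3, 476 and 352 in WT S4+S5, and 19.7 and 16.3 in WT S3. For both lists the WT S4+S5 samples were above every other sample. Macrophage markers at 0 counts numbered 2 in both KO S4+S5 samples and 0 and 1 in WT S4+S5. Lymphoid markers summed to 5.63 and 5.75 CPM in KO S4+S5 against 32.5 and 34.5 CPM in WT S4+S5, with 6 and 6 of 14 at 0 in KO S4+S5 and 1 and 1 in WT S4+S5. The 13 stem and progenitor markers summed to 276 and 339 CPM in KO S4+S5 and 527 and 535 CPM in WT S4+S5. In S3 they summed to 212 and 220 CPM in KO and 295 and 266 CPM in WT. Of these 13, 0 had a higher and 2 a lower late step in KO, against 15.2% and 12% of all genes. Endothelial markers summed to 44 and 57.3 CPM in KO S4+S5 and 80 and 102 CPM in WT S4+S5, with both S3 groups lower. The sum of the megakaryocyte markers was instead highest in KO S4+S5, at 299.5 and 266 CPM. It was 137 and 118 CPM in KO S3, 92 and 215 CPM in WT S4+S5, and 81.8 and 62.5 CPM in WT S3. Single members did not share this order. Of 10 tested, 2 had a higher and 1 a lower late step in KO, against 15.2% and 12% of all genes (median -0.69). Between genotypes in S4+S5, 4 were higher and 3 lower in KO, against 24.5% and 26.8% of all genes (median -0.54). Of 5 mast cell and basophil markers tested, 4 rose in KO and 5 in WT, with a median step of 3.17 in KO and 2.91 in WT. Their sums were 30.8 and 66.1 CPM in KO S4+S5, 5.23 and 5.8 CPM in KO S3, 27.4 and 28 CPM in WT S4+S5, and 4.12 and 3.43 CPM in WT S3. The sum of stellate and mesenchymal markers was also higher in KO, at 777 and 722 CPM in KO S4+S5 and 257 and 247 CPM in WT S4+S5. Nearly all of it came from the single gene Reln, with 769 and 714 CPM in KO S4+S5, 430.4 and 378 CPM in KO S3, 252 and 240.5 CPM in WT S4+S5, and 74.6 and 58.8 CPM in WT S3. The sum therefore describes Reln and not the list. Of 5 members tested, 0 had a higher and 1 a lower late step in KO, against 15.2% and 12% of all genes.

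Single genes known from blood cells other than red cells gave the following values. Lyz2, a lysozyme of macrophages and granulocytes, had 46 and 53.2 CPM in KO S4+S5, 10.5 and 4.74 CPM in KO S3, 921 and 607 CPM in WT S4+S5, and 6.35 and 7.52 CPM in WT S3. It rose in both genotypes, but its level in KO S4+S5 stayed far below that in WT S4+S5, and the interaction was -4.20 ± 0.35 (SE; adjusted p = 3.15e-07). Vcam1, the adhesion protein of macrophages at the centre of erythroblastic islands, had 0 and 0 CPM in KO S4+S5, 0.281 and 0 CPM in KO S3, 19.1 and 15 CPM in WT S4+S5, and 1.65 and 1.31 CPM in WT S3. It was not detected in KO S4+S5 and was at least 124-fold lower there than in WT S4+S5, computed against a floor of 3 counts over the group. Its interaction was called (adjusted p = 0.00231), but lost the call without the summed sample of KO S3. Spi1, the myeloid factor PU.1, gave -2.55 ± 0.40 (SE; adjusted p = 0.00014), and S100a9, a granulocyte protein, -3.58 ± 0.62 (SE; adjusted p = 0.000344). Adgre5, the leukocyte receptor CD97, had 6.87 and 8.62 CPM in KO S4+S5, 8.77 and 7.52 CPM in KO S3, 61.7 and 44.2 CPM in WT S4+S5, and 1.49 and 1.77 CPM in WT S3. WT S4+S5 was highest and WT S3 lowest, and the interaction was -5.17 ± 0.31 (SE; adjusted p = 4.85e-08). Il6st, the shared receptor gp130, gave -4.47 ± 0.33 (SE; adjusted p = 9.59e-08) and Cd300lf, a myeloid receptor, -5.04 ± 0.74 (SE; adjusted p = 7.35e-05). Myb, a factor of progenitors, had 11.3 and 13 CPM in KO S4+S5, 6.1 and 5.96 CPM in KO S3, 60.3 and 60.3 CPM in WT S4+S5, and 11.8 and 10.8 CPM in WT S3, rising in both genotypes and less in KO (-1.43 ± 0.22 (SE; adjusted p = 0.000143)). Of 17 macrophage markers tested, 4 had a lower late step in KO, and of 12 granulocyte markers 9 did, against 12% of all genes. All of these markers rose in WT, and 26.3% of all genes that rose in WT had an interaction against the rise. The 4 of 17 macrophage markers with a lower late step were therefore near the share of genes with a like course. Their count was 1 without the summed sample of KO S3 and 8 without replicate 2 of KO S4+S5. Between genotypes, however, all 17 were lower in KO S4+S5 than in WT S4+S5 (median -3.6), where 26.8% of all genes were. In S3, 10 were lower and 0 higher in KO (median -2.28), against 11.5% and 8.16% of all genes. Interferon-stimulated genes had 6 of 20 lower and 0 higher, against 12% and 15.2% of all genes, and the lower count was not stable over the alternatives. Of the 20, 19 rose in WT and held all 6 lower calls, where 26.3% of all rising genes had an interaction against the rise.

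**Figure D4:**
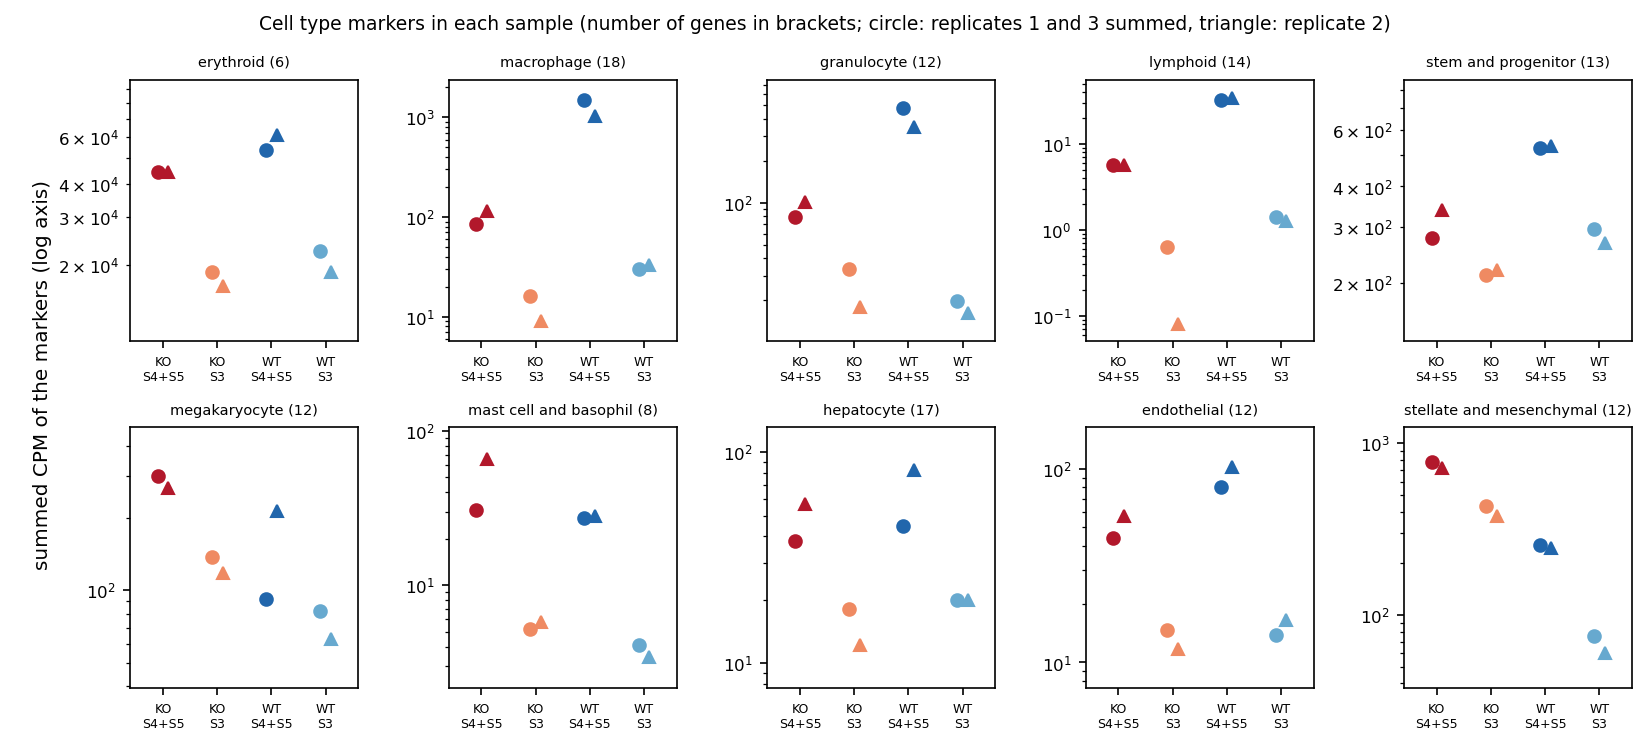
Summed CPM (log axis) of cell type markers in each sample, 1 panel per cell type with the number of genes in brackets; circles are summed replicates 1 and 3, triangles replicate 2, and groups run KO S4+S5, KO S3, WT S4+S5, WT S3. Macrophage, granulocyte, lymphoid, stem and progenitor, and endothelial markers are highest in both WT S4+S5 samples. The stellate and mesenchymal sum, nearly all of it Reln, is highest in both KO S4+S5 samples.

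The same late step was also read with genes chosen by their step in another line. In WT embryos of the EXOSC10 line, which shares no sample with the DIS3 line, S4+S5 was compared with S3. Among genes called there and tested in the DIS3 line, the 200 with the largest and the 200 with the smallest fold change were taken. Testing required enough counts in the DIS3-line samples, which a gene could reach through WT S4+S5 alone. The lists are thus not fully independent of these samples, and this requirement can favour a smaller rise in KO. The rising genes had a median WT step of 5.90 in the DIS3 line and a median KO step of 3.00, with 77 interactions called lower and 0 higher. The falling genes had a median KO step of -0.44 and a median WT step of -1.72, with 86 interactions higher and 3 lower. Mean log2(CPM + 1) of the rising genes was 1.32 and 1.53 in KO S4+S5, 0.38 and 0.30 in KO S3, 3.65 and 3.27 in WT S4+S5, and 0.41 and 0.36 in WT S3. The S3 groups overlapped, and KO S4+S5 lay between S3 and WT S4+S5. Over the alternatives the median interaction stayed between -3.46 and -2.12 for rising and between 0.86 and 1.35 for falling genes. Lower calls among the rising genes numbered 30 to 98. Most of these rising genes were near 0 in S3, and they include Lyz2, Fcgr1, Csf3r and Cd34 of the marker lists. Many others outside those lists are also known from leukocytes, such as Itgam, Ptprc, Cybb, Ccr2 and Mpeg1, whereas Hba-x and Hbb-y are embryonic globin genes. The list is therefore not one of red cell genes alone, and the part of other blood cells in these values was not tested.

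Genes of higher level, chosen in the same way after the first values were seen, gave a smaller difference. Among genes of at least 20 CPM in EXOSC10 WT S3, the 200 with the largest rise had a median KO step of 1.52 and a median WT step of 1.84. Of these, 127 were kept and 53 reduced. Among genes of at least 20 CPM in EXOSC10 WT S4+S5, the 200 with the largest fall had medians of -1.24 in KO and -1.43 in WT, and 110 were kept. The median interaction was -0.32 for rising and 0.31 for falling genes. Over the alternatives it ranged from -0.71 to -0.17 for rising genes, and from -0.09 to 0.33 for falling genes, where the sign changed.

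**Figure D5:**
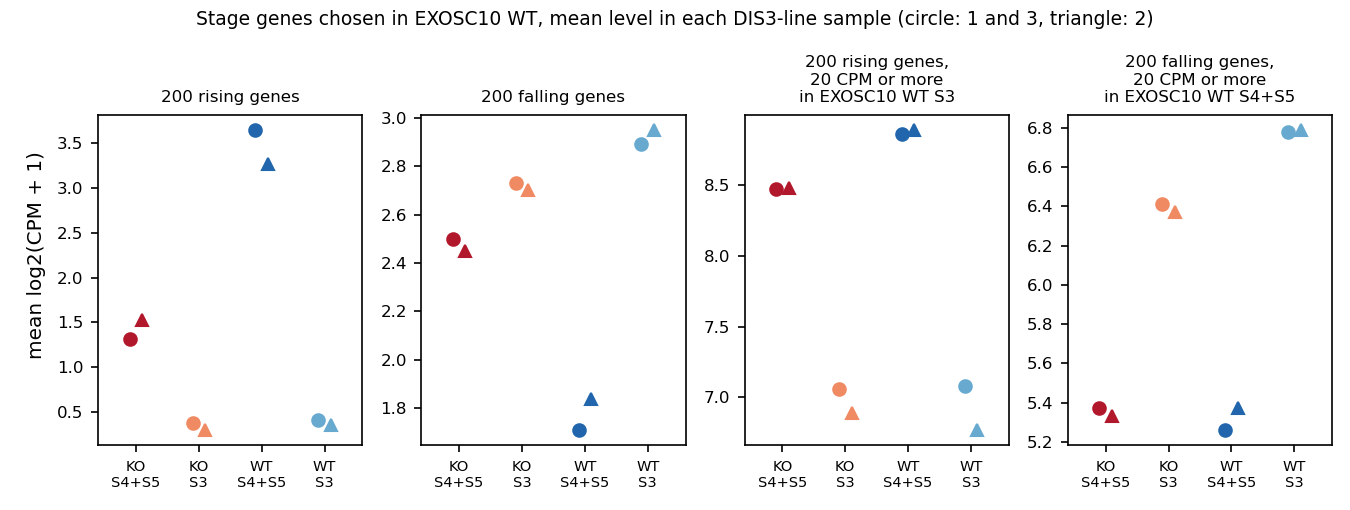
Mean log2(CPM + 1) of stage genes chosen in EXOSC10 WT, in each DIS3-line sample, with circles for summed replicates 1 and 3 and triangles for replicate 2; the panels on the right hold genes of at least 20 CPM, and the vertical axes differ. For the rising genes on the left, KO S4+S5 (1.32 and 1.53) lies below WT S4+S5 (3.65 and 3.27), and for the abundant falling genes KO S4+S5 and WT S4+S5 overlap.

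The EXOSC10 line, in which the other nuclear exosome ribonuclease is knocked out, shares no sample with the DIS3 line and went through the same fractions. In its own fit of 14944 genes, 607 interactions were higher (4.06%) and 428 lower (2.86%). Of 14071 genes tested in both lines, 2194 were called higher in the DIS3 line and 605 in the EXOSC10 line, and 475 in both, which is 21.6% of the DIS3 calls and 78.5% of the EXOSC10 calls. Lower calls numbered 1746 and 427, with 263 in both (15.1% and 61.6%). Numbers of calls also depend on the spread between samples, which differed between the lines. In KO S4+S5, the chi-square statistic of unsummed pairs was 56.094 and 56.276 in the EXOSC10 line, against 7.238 and 7.662 in the DIS3 line. In WT S4+S5 it was 12.073 and 12.671 against 28.697 and 30.471, all per degree of freedom. The part of this spread in the numbers of calls and their overlap was not tested. Only 2 genes called higher and 3 called lower in the DIS3 line were called the other way in the EXOSC10 line. The interaction in the EXOSC10 line was 3.31 for Zbtb46, 2.32 for Sesn2, 1.41 for Mdm2, 2.32 for Psrc1, 1.43 for Tmem14c and -1.27 for Xpo7 (adjusted p = 6.5e-05, 0.000151, 0.000216, 0.00215, 0.000242 and 0.00158).

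The difference between the 2 interactions was tested for 15778 genes, and it was higher in 251 (1.59%) and lower in 211 (1.34%). Mdm2 and Tmem14c were among the genes with a higher interaction in the DIS3 line, by 0.88 and 0.93 (adjusted p = 0.0146 and 0.0278), and Lyz2 among those with a lower one, by -3.65 (adjusted p = 0.00428). For Zbtb46 the difference was 0.18 and was not called (adjusted p = 0.788). The line cannot be told apart from any batch in which its libraries were made.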

How the data were processed

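Libraries of the DIS3 line, fractions S3 and S4+S5, were analysed, with the same fractions of the EXOSC10 line for comparison. The authors deposited a table of raw counts for each library, over 49585 Ensembl genes. HISAT2 2.1.0, Subread (no version), featureCounts 1.6.4, R 3.5.1 and DESeq2 1.20.0 with build GRCm38 are named in the submitters' processing notes, whereas the annotation release and strand setting are not given in the sources used here. Symbols, biotypes and coordinates came from GENCODE M21 (49326 identifiers found).

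Pairs of libraries with a chi-square statistic under 1.5 per degree of freedom, over genes with at least 20 counts, were summed. One model with a mean for each of the 4 groups was fitted to the 8 samples in edgeR 4.0.16 and tested by quasi-likelihood (R 4.3.3, TMM, filterByExpr, no replicate block), and p-values were adjusted by Benjamini-Hochberg over all genes. The difference between lines came from a fit of both lines.

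The alternatives were DESeq2 1.42.0, its size factors in edgeR, no filter, every library as a sample, a replicate block, all sorted DIS3 groups in the fit, removal of Gm26917 and Gm42418, and leaving out each sample. Lists and single genes were chosen with earlier results of these data known. Named genes were the 12 highest and 12 lowest called interactions of at least 10 CPM, the 4 largest steps per class and direction at 20 CPM or more, up to 4 called members per list, and a set of erythroid and marker genes; a few of these are not reported here. Lists are described by counts and medians with no test of their own. Depth limits genes of few counts, and a count of 0 over a group was taken as under 3 counts.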

Additional observations from a re-analysis of the deposited data

Results flagged for a closer look

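Each of the following 22 genes is named in the report or was followed in the alternatives, and its interaction differed between the DIS3 line and the EXOSC10 line in a single fit of both lines (edgeR quasi-likelihood test, adjusted p under 0.05). Values are log2, the interaction of the DIS3 line minus that of the EXOSC10 line. Differences between lines cannot be told apart from any batch in which the lines were handled.

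The interaction was higher in the DIS3 line for 3 genes of the heme and iron lists, Tmem14c (0.93), Uros (0.89) and Steap3 (1.12), and for Tfrc (0.77), which was also the basis of the sort. It was also higher for Wipi1 (0.99), Mdm2 (0.88), Rrm2 (0.94), Car1 (1.83), St3gal6 (1.38) and the non-coding genes Kcnq1ot1 (0.97) and Gm45250 (3.5). In the EXOSC10 line itself, Tmem14c and Mdm2 had called interactions of 1.43 and 1.41, in the direction of the DIS3 line, whereas Rrm2 had 0.00 and Kcnq1ot1 0.20, not called.

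The interaction was lower in the DIS3 line for 6 genes named with the blood cell markers: Adgre5 (-1.82), Cd300lf (-4.16), Lyz2 (-3.65), S100a9 (-3.97), Spi1 (-1.94) and Vcam1 (-8.69, fitted against samples without counts, so its size depends on the fit). It was also lower for Bri3bp (-2.35), Ctsz (-1.64), Txndc5 (-1.67), Mogs (-1.33) and Tcf19 (-0.97). Summed macrophage markers in the DIS3 line were 84.7 and 115 CPM in KO S4+S5 against 1486 and 1043 CPM in WT S4+S5, and their part in these differences was not tested.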

How the results depend on the processing

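The alternatives numbered 15, 8 of them leaving out 1 sample. Values that left the range of 1.5 times follow. With the Wald test of DESeq2 there were 1372 higher interactions and 357 reversed changes. With every library as its own sample there were 2676 lower interactions, 2605 genes with a difference between lines (462 otherwise), 857 enlarged, 1465 reduced and 933 reversed changes; without a filter on low counts 757 genes differed between lines. Leaving out 1 sample gave 839 to 1653 higher and 981 to 3084 lower interactions, 152 to 580 enlarged, 335 to 1062 reduced, 332 to 508 reversed and 640 to 1116 gained changes. Of the 2221 higher calls, 1372 stayed with DESeq2 and 1664 with its size factors in edgeR.

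The fit with a replicate block gave 1983 higher and 1569 lower interactions. Samples with the same number did not deviate together (r = -0.006 in KO and -0.025 in WT), so the numbers were not taken as pairs.

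Of 89 genes followed, 75 were called, and 62 of these in all alternatives. Of 1335 gene and alternative combinations, 19 ended a call, all by leaving out a sample, 31 added one and 0 turned a direction of a called value. Of 1020 counts of list members, 292 moved by over 1.5 times. With 2 samples per group, small interactions and genes of few counts are the least certain.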
